A study of Mus musculus with 61 samples.

Results

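The genes described here were 29 genes of cholesterol synthesis, of its control and of cholesterol handling, each chosen by its symbol. They comprised 7 enzymes of the mevalonate arm, 11 enzymes of the squalene and sterol arm, 5 regulators and 6 genes of sterol transport and storage. All 29 were among the 46078 genes in the count table, and all 29 were among the 24004 genes that passed the detection filter and were tested.

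The cells were mouse pancreatic ductal organoids of the C57BL/6 strain, three-dimensional cultures grown from adult pancreatic ducts. They carried doxycycline-inducible lentiviral vectors, each of which joined a transcription factor to a fluorescent protein, together with a vector for the inducible transactivator, and every group had 8 days of induction. Cells were sorted in pools of 50 by their reporters into 6 combinations, namely Pdx1, MafA, Pdx1 with MafA, and the same 3 partners together with Ngn3. Each combination was taken from cultures with wild-type Ngn3 (WT) and from cultures with 6SA Ngn3, a form with serine phosphorylation sites changed to alanine. The cells without Ngn3 are therefore infected cells of the same kind of culture and not untreated ducts. In the 12 conditions there were 32 samples, 17 with Ngn3 and 15 without, with 2 or 3 per condition. Replicates 1 and 2 came from passage 2 and replicate 3, present in 8 conditions, came from passage 5. Nothing in the labels ties the replicates to separate animals, so p-values measure the spread between these samples.

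Sample totals ranged from 2579583 to 19461008 gene counts, so that 3 counts correspond to between 0.154 and 1.16 counts per 1000000 (CPM) of these totals. The CPM values given for genes use TMM library sizes, so this floor is approximate for them. The transduced gene followed the labels, with Neurog3 between 7.87 and 329 CPM in the 17 Ngn3 samples and between 0 and 0.788 CPM in the other 15. The duct keratin Krt19 lay between 567 and 1524 CPM without Ngn3 and between 5.27 and 401 CPM with it. All 10 endocrine markers were higher with Ngn3 and 6 of 10 duct markers were lower. Of the markers of stroma, vessels and blood, 5 of 10 passed the detection filter. Their summed level was at most 136 CPM with Ngn3 (median 15.1) and 19.2 CPM without (median 15.4). The highest level thus lay far above the median, and Col1a1 alone reached 89.9 CPM in an Ngn3 sample. The mitochondrial share of counts was 1.85 to 11.6% with Ngn3 and 3.97 to 14.4% without. Mafa was at 0.306 to 12.7 CPM in the 11 Ngn3 samples labelled MafA, and at most 0.116 CPM in the 6 not so labelled. Without Ngn3 it was at 0 to 4.21 CPM in the 11 samples labelled MafA, of which 4 had at most 3 counts, so at this depth it checks the MafA label only in part. Pdx1 was present in every sample, at 9.84 to 191 CPM and 11.2 to 37.7 CPM with and without Ngn3 where labelled, and at 3.21 to 30.6 CPM and 4.22 to 19.3 CPM where not labelled. These ranges overlapped, and vector and endogenous transcripts were not separated in the counts. In such pools a smaller share of cells with a transcript and less of it per cell cannot be told apart.

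Cholesterol is built from acetyl-CoA. The mevalonate arm makes isoprenoid units, and the sterol arm joins them into squalene, closes the rings and trims the product to cholesterol. When sterol in the endoplasmic reticulum is low, the escort protein SCAP carries the membrane-bound factors SREBP1 and SREBP2 (from Srebf1 and Srebf2) to the Golgi, where they are cut and released to the nucleus. They then raise transcription of nearly the whole pathway together with partners such as NF-Y and Sp1. INSIG proteins hold SCAP back when sterol is plentiful, and oxysterol-sensing receptors raise the exporters ABCA1 and ABCG1.

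Promoters of the members are shown first, because shared elements of this kind are what the pathway is known for. Promoter windows of RefSeq (GRCm38.p6), each of 250 bases before and 50 bases after a transcription start, were matched by symbol to 23 of the 29 members, and none to Fdft1, Stard4, Abcg1, Fdps, Npc1 and Sqle. The letters TCACNCCAC, a sterol regulatory element, CCAAT, the NF-Y box, GGGCGG, the GC box bound by Sp1, and CAGATG, an E-box of the kind bound by Neurogenin3, were searched on both strands. None of these motifs contains another. The stretches shown are the 150 bases of the 4 synthesis genes called lower with Ngn3 that hold the most matches there, and those of Insig1, the regulator called higher. Each ends before the first annotated transcribed base (for Insig1, 49 bases before the RefSeq start), reads 5′ to 3′ on the strand of the gene, and has in capitals every match to TCACNCCAC, CCAAT or GGGCGG on either strand.
Hmgcs1 (chr13:119690201-119690350, plus strand): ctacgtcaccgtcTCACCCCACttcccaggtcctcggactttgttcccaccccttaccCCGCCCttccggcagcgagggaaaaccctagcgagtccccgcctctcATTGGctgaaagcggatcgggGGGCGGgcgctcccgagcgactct
Mvd (chr8:122443423-122443572, minus strand): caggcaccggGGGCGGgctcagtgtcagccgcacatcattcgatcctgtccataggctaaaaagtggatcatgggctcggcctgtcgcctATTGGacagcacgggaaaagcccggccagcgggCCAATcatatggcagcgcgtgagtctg
Nsdhl (chrX:72918371-72918520, plus strand): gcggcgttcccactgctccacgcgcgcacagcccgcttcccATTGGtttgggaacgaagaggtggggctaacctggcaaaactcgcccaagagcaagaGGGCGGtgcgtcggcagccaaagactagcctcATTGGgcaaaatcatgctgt
Ebp (chrX:8193513-8193662, minus strand): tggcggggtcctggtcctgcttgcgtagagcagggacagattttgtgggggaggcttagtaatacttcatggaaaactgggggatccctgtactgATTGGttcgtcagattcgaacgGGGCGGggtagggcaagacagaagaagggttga
Insig1 (chr5:28071213-28071362, plus strand): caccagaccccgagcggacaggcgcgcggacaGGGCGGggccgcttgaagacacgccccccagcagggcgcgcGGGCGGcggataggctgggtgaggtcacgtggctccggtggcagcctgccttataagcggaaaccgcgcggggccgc

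The stretch of Hmgcs1 holds all 3 kinds of match, and those of Mvd and Nsdhl hold a pair of CCAAT matches each. Over all 31 windows of members, CCAAT was found in 67.7%, against 37.4% of the 32851 windows in the table. GGGCGG was found in 80.6% of member windows and 35.7% of all windows. The strict sterol element was found in 1 member, Hmgcs1, and in 1.24% of all windows. CAGATG was found in 22.6% of member windows and 17.2% of all windows, and in 1 of the 10 matched members that were lower with Ngn3 and 5 of the other 13. By the same split, CCAAT was found in 9 of 10 and 11 of 13 members, and GGGCGG in 10 of 10 and 11 of 13. These are matches of letters, not measured sites, and several members have more than 1 window.

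With Ngn3, over all partners and both kinds of culture, enzymes of cholesterol synthesis were lower. Of the 18 synthesis enzymes, 13 fell and none rose at an adjusted p under 0.05 (edgeR quasi-likelihood test, Benjamini-Hochberg adjustment over all genes), and 17 of 18 had a negative log2 fold change. Among the other members, the regulator Insig1 and the transporters Npc1l1 and Abcg1 rose. In all, 16 of 29 members were called, where 21.5% of all genes tested were called. The 13 lower members compare with 10.5% of all genes called lower, or 13.5% when only the better-expressed genes kept by filterByExpr were tested. The 3 higher members compare with 11.1% of all genes called higher. The median log2 fold change was -0.45 over the members and 0.07 over all genes tested. The proliferation genes moved with Ngn3 too. All 10 of 10 fell, and their summed level was 50.3 to 839 CPM (median 121) with Ngn3 and 192 to 2105 CPM (median 435) without. Their part in the result was not tested.

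**Figure D1:**
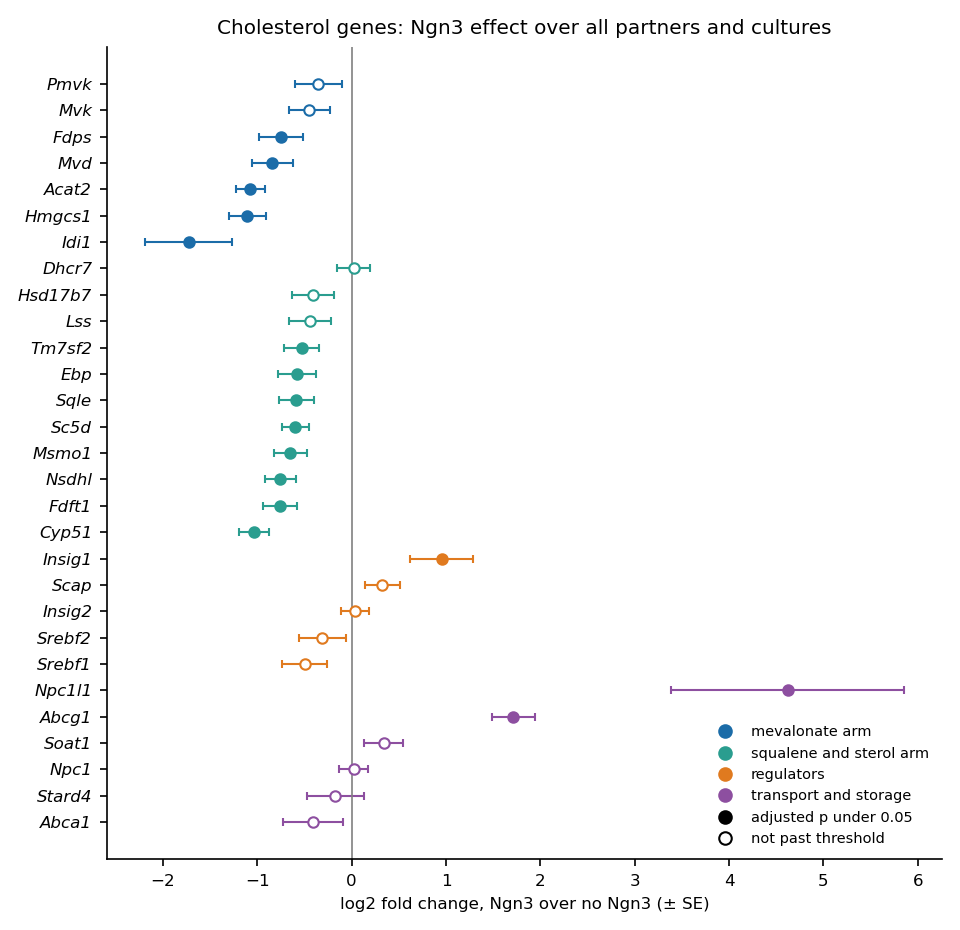
Log2 fold change (Ngn3 samples over samples without Ngn3, x axis, with 1 standard error) of the 29 members in the model of all 12 conditions, coloured by role and filled where the adjusted p was under 0.05. The 13 filled points left of 0 are all synthesis enzymes, and the 3 filled points right of 0 are Insig1, Npc1l1 and Abcg1.

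As a sum, the 18 synthesis enzymes took 882.5 to 2333 CPM (median 1506) in the 15 samples without Ngn3 and 801 to 1361 CPM (median 950) in the 17 with it. The ranges overlapped. The lowest sample without Ngn3, at 882.5 CPM, was replicate 1 of 6SA Pdx1 with MafA, and the next lowest was at 1147 CPM, above 15 of the 17 Ngn3 samples. The sum was lower with Ngn3 in all 14 pairs of samples that shared culture, partner and replicate number, 12 at passage 2 and 2 at passage 5. These pairs share a number in the labels, and the count is a description without a test. The ratio within pairs ran from 0.398 to 0.965 with a median of 0.653. By condition, the mean sum was lowest in WT Ngn3 with Pdx1 and MafA, at 851 ± 68.1 CPM (SD, n = 3), and highest in WT Pdx1 with MafA, at 1821 ± 530 CPM (SD, n = 3). Among the conditions with Ngn3, the highest mean was that of 6SA Ngn3 with Pdx1, at 1181 ± 175 CPM (SD, n = 3), and the lowest mean without Ngn3 was that of 6SA MafA, at 1306 ± 138 CPM (SD, n = 3).

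**Figure D2:**
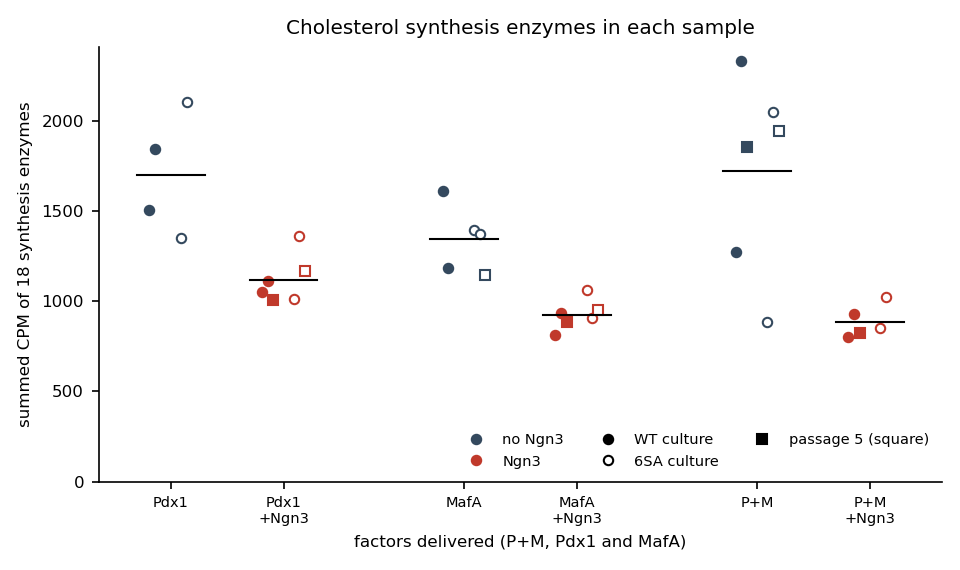
Summed CPM of the 18 synthesis enzymes (y axis) in each of the 32 samples by combination of factors (x axis), with filled symbols for WT and open symbols for 6SA cultures, squares for passage 5 and a line at the mean. Samples with Ngn3 lie between 801 and 1361 CPM for every partner, and those without reach 2333 CPM.

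In the mevalonate arm 5 of 7 enzymes fell. Hmgcs1 (chr13:119690379-119708260, GRCm38), which makes HMG-CoA at the entry of the pathway and has the promoter with all 3 kinds of match, was at 86.4 to 349 CPM (median 225) without Ngn3 and at 51.9 to 199 CPM (median 89.6) with it. The ranges overlapped, although 10 of the 15 samples without Ngn3 lay above every Ngn3 sample. Its log2 fold change was -1.11 ± 0.19 (SE), 2.15-fold lower, with an adjusted p of 0.000103. Acat2 (chr17:12942890-12960747) joins acetyl-CoA units to feed that step, and was at 35.8 to 98.9 CPM (median 59.6) without and 18.1 to 48.7 CPM (median 29.2) with Ngn3. In 14 of 17 Ngn3 samples Acat2 was below every sample without Ngn3, and it was lower in 14 of 14 pairs. This was a log2 fold change of -1.07 ± 0.16 (SE), with an adjusted p of 8.3e-06. Hmgcs1 shares exon sequence with a predicted gene on the opposite strand, and the counting strand is not stated, so its counts are uncertain to that extent.

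Idi1 interconverts the isoprenoid building blocks and had the largest fall of the 29 members, on few counts. It was at 0.264 to 9.90 CPM (median 6.16) without Ngn3 and at 0.146 to 5.12 CPM (median 1.80) with it. In 2 samples, replicate 3 of 6SA MafA and replicate 2 of WT Ngn3 with Pdx1 and MafA, the count was 1. The fitted log2 fold change was -1.73 ± 0.46 (SE), with an adjusted p of 0.00717. Mvd, which removes the carboxyl group of the mevalonate product, went from a median of 45.9 CPM (12.3 to 64.5) without Ngn3 to 22.3 CPM (11.6 to 44.8) with it, and fell by 0.84 ± 0.22 (SE) on the log2 scale (adjusted p = 0.00507). Fdps, which makes farnesyl diphosphate, went from a median of 15.3 CPM (6.48 to 20.3) to 8.26 CPM (3.32 to 13.4), and fell by 0.75 ± 0.23 (SE) with an adjusted p of 0.0198. The ranges of both overlapped. The kinases Mvk and Pmvk had values of -0.45 and -0.35 and did not pass the test (adjusted p = 0.161 and 0.403). Idi1 and Fdps overlap predicted genes and are uncertain in the same way as Hmgcs1.

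In the squalene and sterol arm 8 of 11 enzymes fell. Cyp51 (chr5:4081145-4104746), the lanosterol demethylase, was at 96.2 to 262 CPM (median 171) without Ngn3 and at 51.6 to 129 CPM (median 82.4) with it. Of the 17 Ngn3 samples, 11 lay below every sample without Ngn3, and Cyp51 was lower in 14 of 14 pairs. Its log2 fold change was -1.04 ± 0.16 (SE), 2.05-fold lower, with an adjusted p of 1.7e-05. Nsdhl, a dehydrogenase of sterol demethylation, was at 51.3 to 142 CPM (median 64.7) without and at 25.3 to 63.5 CPM (median 42.6) with Ngn3. In 13 of 17 Ngn3 samples Nsdhl lay below every sample without Ngn3. It fell by a log2 fold change of -0.76 ± 0.17 (SE), with an adjusted p of 0.00109.

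The other enzymes that fell in that arm changed less than Cyp51. Fdft1, squalene synthase, went from a median of 150 CPM (62.5 to 230) without Ngn3 to 83.0 CPM (50.6 to 144) with it, a log2 fold change of -0.76 ± 0.18 (SE) and an adjusted p of 0.00234. Msmo1, which oxidises the sterol methyl groups and was the most abundant member per length, went from a median of 247 CPM (112 to 404) to 154 CPM (106 to 242). That is a log2 fold change of -0.65 ± 0.17 (SE), with an adjusted p of 0.00692. Sc5d, a sterol desaturase, went from a median of 117 CPM (75.1 to 168) to 83.3 CPM (42.4 to 124), a log2 fold change of -0.60 ± 0.14 (SE) and an adjusted p of 0.00267. The ranges of all 3 overlapped between the groups.

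Sqle, squalene epoxidase, Ebp, a sterol isomerase, and Tm7sf2, a sterol reductase, passed the threshold by less. Sqle was at 59.3 to 273 CPM (median 150) without and 54.9 to 181 CPM (median 95.6) with Ngn3, a log2 fold change of -0.59 ± 0.19 (SE) and an adjusted p of 0.0227. Ebp was at 44.8 to 150 CPM (median 80.3) without and 26.2 to 87.2 CPM (median 55.4) with Ngn3, a log2 fold change of -0.58 ± 0.20 (SE) and an adjusted p of 0.0378. Tm7sf2 was at 26.9 to 61.3 CPM (median 41.6) without and 14.1 to 55.7 CPM (median 30.6) with Ngn3, a log2 fold change of -0.53 ± 0.19 (SE) and an adjusted p of 0.0408. With single samples left out in turn, Tm7sf2 kept an adjusted p under 0.05 in 8 of 32 fits, Ebp in 15 and Sqle in 25. Lss, lanosterol synthase, and Hsd17b7, a sterol ketone reductase, had values of -0.44 and -0.41 that did not pass (adjusted p = 0.182 and 0.217). Dhcr7, which makes cholesterol from its last precursor, had a log2 fold change of 0.02 ± 0.17 (SE) and was lower in 6 of 14 pairs. Exons of Fdft1, Cyp51, Tm7sf2 and Lss overlap those of Ctsb, Akap9, Vps51 and a predicted gene, so reads could be shared there.

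Leaving out whole replicates reduced these calls. Without replicate 3, which leaves passage 2 alone, 8 synthesis enzymes remained called lower, while calls over all genes went from 5168 to 5074. Without replicate 2 there were 3, Acat2, Hmgcs1 and Cyp51, while calls over all genes dropped to 2085. Acat2, Hmgcs1, Cyp51 and Abcg1 were called in each of the 12 alternative fits and in each of the 32 fits that left out 1 sample. At passage 5 there were 3 samples without Ngn3 and 1 sample per condition, so no test within that passage was made.

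**Figure D3:**
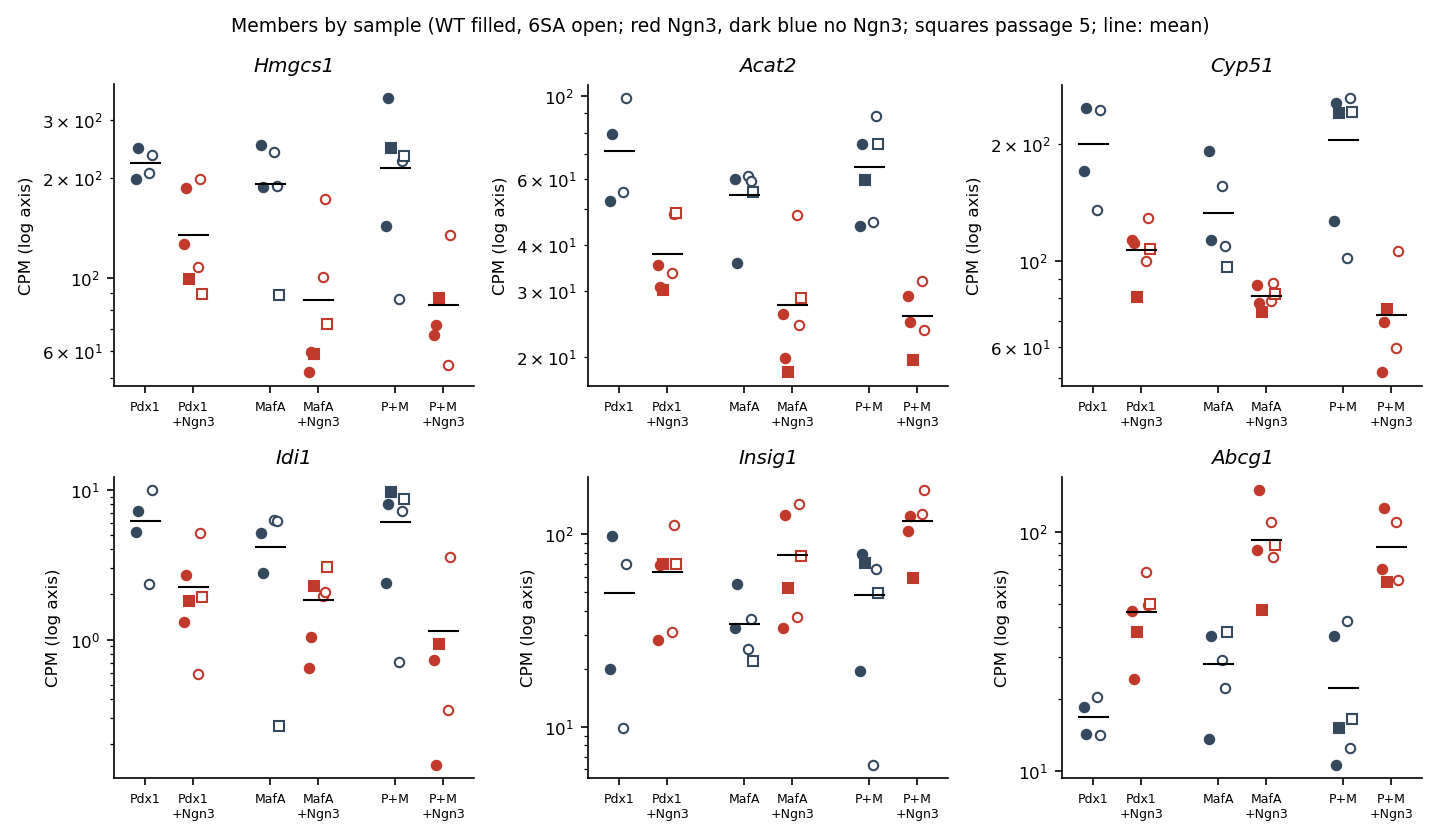
CPM on a log axis of Hmgcs1, Acat2, Cyp51, Idi1, Insig1 and Abcg1 in each of the 32 samples by combination of factors, with filled symbols for WT, open symbols for 6SA cultures, squares for passage 5 and a line at the mean. Hmgcs1, Acat2 and Cyp51 are lower and Abcg1 is higher with Ngn3 for each partner, and Insig1 spreads over more than 10 times within samples without Ngn3, from 6.36 to 98.4 CPM.

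Of the 5 regulators, Insig1 rose and the other 4 did not pass the test. Insig1, itself a known SREBP target that holds the SCAP complex back, was at 6.36 to 98.4 CPM (median 36.1) without Ngn3 and at 28.1 to 169 CPM (median 70.3) with it. Of the 17 Ngn3 samples, 7 were above every sample without Ngn3, and Insig1 was higher in 11 of 14 pairs. The log2 fold change was 0.95 ± 0.33 (SE), with an adjusted p of 0.0394, and it kept an adjusted p under 0.05 in 19 of 32 fits with 1 sample left out. Its direction was thus opposite to that of the synthesis enzymes. Insig2, the related anchor, was at 50.6 to 109 CPM (median 72.4) without and 52.4 to 138 CPM (median 78.6) with Ngn3, a log2 fold change of 0.03 ± 0.15 (SE) that turned negative without replicate 2 or replicate 3.

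Srebf2, whose protein is the main activator of the cholesterol enzymes, was at 39.5 to 179 CPM (median 81.7) without Ngn3 and 31.3 to 148 CPM (median 74.2) with it. Its log2 fold change was -0.31 (95% interval -0.83 to 0.21, adjusted p = 0.496). Srebf1, whose protein acts more on fatty acid genes, was at 38.8 to 204 CPM (median 87.9) without and 35.1 to 156 CPM (median 82.7) with Ngn3. Its log2 fold change was -0.50 (interval -0.998 to 0.004). The edgeR test gave it an unadjusted p of 0.0478 and an adjusted p of 0.159. Scap was at 39.3 to 118 CPM (median 70.1) without and 38.7 to 121 CPM (median 94.4) with Ngn3. Its log2 fold change was 0.33 ± 0.19 (SE), with an adjusted p of 0.258. Scap was called higher in 2 of the 12 alternative fits, those with a block of replicate number. These transcripts say nothing of the cut, nuclear form of the SREBP proteins, which was not measured. Srebf1 and Scap overlap other genes and are uncertain to that extent.

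Of the 6 genes of transport and storage, Abcg1 and Npc1l1 rose. Abcg1 (chr17:31057675-31117988), a cholesterol exporter, was at 10.6 to 42.4 CPM (median 18.6) without Ngn3 and 24.3 to 150 CPM (median 67.8) with it. In 15 of 17 Ngn3 samples Abcg1 was above every sample without Ngn3, and it was higher in 14 of 14 pairs. Its log2 fold change was 1.71 ± 0.23 (SE), 3.28-fold higher, with an adjusted p of 2.78e-06, the lowest among the members. The related exporter Abca1 did not pass the test, and had a log2 fold change of -0.41 ± 0.32 (SE) and an adjusted p of 0.467. Npc1, which moves cholesterol out of lysosomes, and Stard4, a soluble sterol carrier, had values of 0.02 and -0.17. Soat1, which esterifies cholesterol for storage, had a value of 0.34 ± 0.21 (SE) and an adjusted p of 0.317.

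Npc1l1, the cholesterol importer of intestinal cells, was near the limit of detection. It had no count in 12 of 15 samples without Ngn3 and in 5 of 17 with it. The 3 samples without Ngn3 that had any were replicate 1 of 6SA MafA, at 0.576 CPM, replicate 1 of 6SA Pdx1, at 0.896 CPM, and replicate 2 of WT Pdx1 with MafA, at 1.92 CPM. With Ngn3 it reached 9.11 CPM, with a median of 1.36 CPM, and 6 of 17 samples were above every sample without Ngn3. The fitted log2 fold change was 4.62 ± 1.23 (SE), with an adjusted p of 0.00791. It depends on the prior count, and the difference of mean log2(CPM + 1) was 1.08. The call was lost without replicate 1 of WT Ngn3 with MafA, which held the highest count, 53. Npc1l1 passed the detection filter mainly through the Ngn3 samples.

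The 3 partners were then taken one by one, with the cells carrying the same partner and no Ngn3 as reference. With Pdx1 and MafA together, 8 synthesis enzymes fell (8.4% of all genes were called lower) and Abcg1 rose (9.42% were called higher). The 8 were Acat2, Hmgcs1, Idi1, Fdft1, Cyp51, Msmo1, Nsdhl and Sc5d. Cyp51 had a log2 fold change of -1.47 ± 0.28 (SE), 2.78-fold lower, with an adjusted p of 0.000512, and Acat2 had -1.31 ± 0.27 (SE), with an adjusted p of 0.0013. Sc5d followed with -1.15 ± 0.25 (SE) and an adjusted p of 0.00187. Abcg1 had 1.95 ± 0.38 (SE), with an adjusted p of 0.000645. None of the 9 was called without replicate 2.

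With MafA alone, Acat2 and Hmgcs1 fell (2.17% of genes were called lower) and Abcg1 rose (2.5% were called higher). Hmgcs1 was at 188 to 252 CPM in 4 of the 5 samples with MafA and no Ngn3 and at 88.6 CPM in the fifth, replicate 3 of the 6SA culture. With Ngn3 and MafA it was at 51.9 to 59.7 CPM in the 3 WT samples and at 72.4 to 173 CPM in the 3 6SA samples, so the groups overlapped. Its log2 fold change was -1.27 ± 0.33 (SE), with an adjusted p of 0.0215. Acat2 had -0.98 ± 0.26 (SE) (adjusted p = 0.0268), and Abcg1 had 1.77 ± 0.40 (SE) (adjusted p = 0.0066). No member was called here without replicate 1 or without replicate 2, and 1 was called without replicate 3.

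With Pdx1 alone no member was called by edgeR, where 0.171% of genes were called lower and 1.32% higher. At an unadjusted p under 0.05 there were 8 members and 2899 genes. DESeq2 called 2 members, Acat2 and Abcg1, and 911 genes. Acat2, Hmgcs1, Cyp51 and Abcg1 had the same direction as with the other partners. The value of Cyp51 lay between those with the other partners, while those of Acat2, Hmgcs1 and Abcg1 were smaller in size. Hmgcs1 had a log2 fold change of -0.72 ± 0.34 (SE). Acat2 had a log2 fold change of -0.93 ± 0.28 (SE) and an adjusted p of 0.0951, Cyp51 had -0.90 ± 0.28 (SE), and Abcg1 had 1.42 ± 0.42 (SE) with an adjusted p of 0.0905. All 18 synthesis enzymes had negative values with Pdx1, 17 of 18 with MafA and 17 of 18 with both. The median over the members was -0.48 with Pdx1, -0.37 with MafA and -0.55 with both, beside 0.07, 0.03 and 0.05 over all genes tested. A test of the difference of the Ngn3 effect between partners called no member, and 0.0333% of genes. At an unadjusted p under 0.05 it had 1 member, Sc5d (adjusted p = 0.615), and 1833 genes. DESeq2 called no member and 273 genes. The data therefore do not show that the partners differed, nor that they acted alike.

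**Figure D4:**
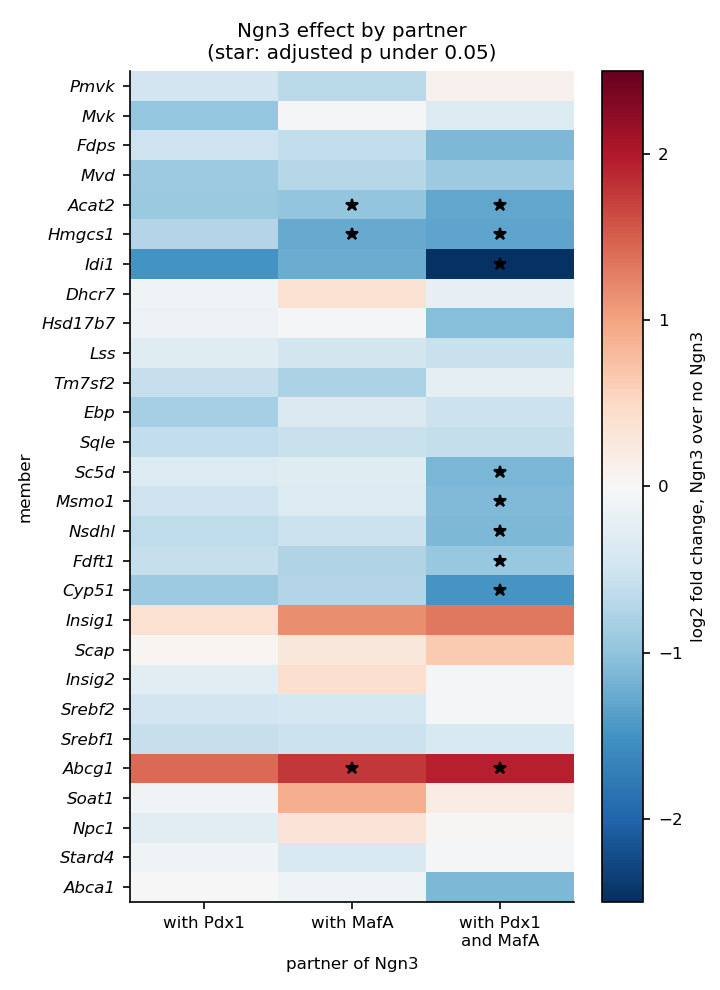
Log2 fold change of Ngn3 samples over samples without Ngn3, as a colour scale from -2.5 to 2.5, for 28 members (rows, Npc1l1 left out for its low counts) and each partner of Ngn3 (columns), with a star where the adjusted p was under 0.05. Blue fills most rows of the synthesis enzymes in every column, and stars number 9 with Pdx1 and MafA, 3 with MafA and 0 with Pdx1.

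The form of Ngn3 was compared next, since the study asked what the loss of phosphorylation sites changes. Between 6SA and WT Ngn3 cells, no member was called, and 0% of all genes by edgeR. At an unadjusted p under 0.05 there was no member and there were 1421 genes, and DESeq2 called no member and 26 genes. Of the 29 members, 23 had a positive value (higher with 6SA), with a median of 0.26 beside 0.08 over all genes. Acat2 was at 18.1 to 35.4 CPM in the 9 WT Ngn3 samples and 23.6 to 48.7 CPM in the 8 6SA Ngn3 samples, a log2 difference of 0.43 (95% interval -0.02 to 0.87). The interval of Hmgcs1 was -0.12 to 0.98 and that of Cyp51 -0.27 to 0.63, so these data allow differences up to those bounds. Between the cultures in cells without Ngn3, no member and 0% of genes were called, no member and 591 genes had an unadjusted p under 0.05, and the median over the members was -0.04. The interaction of Ngn3 form with Ngn3 called no member and 0% of genes, with no member and 647 genes at an unadjusted p under 0.05. DESeq2 called no member in either comparison, and 8 and 5 genes.

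The effect of the partners themselves was compared with Ngn3 held constant, and edgeR called no member in any of these 4 comparisons. Without Ngn3, adding MafA to Pdx1 called no member and 0% of genes, with no member and 531 genes at an unadjusted p under 0.05. Adding Pdx1 to MafA called no member and 0% of genes either, with 3 members and 689 genes at an unadjusted p under 0.05. DESeq2 called no member in both, and 13 and 24 genes. The 3 were Cyp51 (0.59 ± 0.27, SE), Lss (0.81 ± 0.39, SE) and Nsdhl (0.59 ± 0.28, SE), each higher with Pdx1 and with an adjusted p above 0.99. In Ngn3 cells, adding MafA to Pdx1 called no member where 1.88% of genes were called, with 4 members and 3668 genes at an unadjusted p under 0.05. DESeq2 called 1 member, Sc5d, and 1344 genes. Sc5d had a log2 difference of -0.70 ± 0.25 (SE) there and an adjusted p of 0.154 by edgeR. Adding Pdx1 to Ngn3 and MafA called no member where 2.72% of genes were called, with 4 members and 4488 genes at an unadjusted p under 0.05. DESeq2 called no member and 1935 genes there. The test for any difference among the 12 conditions called 4 members, Abcg1, Acat2, Cyp51 and Hmgcs1, where 7.2% of genes were called.

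Passage was the other variable for which members were called, mostly regulators and genes of transport and storage. In a model of condition and passage, 5 members were lower at passage 5 than at passage 2 (5.07% of genes were called lower) and none was higher (3.15% were called higher). They were Srebf2, Srebf1, Soat1, Tm7sf2 and Npc1l1. Srebf2 was at 31.3 to 74.4 CPM (median 46.6) in the 8 samples of passage 5 and 47.0 to 179 CPM (median 96.8) in the 24 of passage 2. Its log2 difference was -1.04 ± 0.25 (SE), 2.05-fold lower, with an adjusted p of 0.0129. Srebf1 was at 35.1 to 79.0 CPM (median 58.9) and 51.4 to 204 CPM (median 102), a log2 difference of -0.97 ± 0.24 (SE) and an adjusted p of 0.0151. For both factors 3 or 4 samples of passage 5 lay below every sample of passage 2. Replicates 1 and 2, both of passage 2, also differed. Srebf2 was higher in replicate 1 in every condition but 6SA Ngn3 with Pdx1 and MafA (82.6 and 148 CPM). Srebf1 was higher there in every condition but WT Ngn3 with Pdx1 (96.3 and 100 CPM). In WT Pdx1 with MafA, Srebf2 was at 117, 81.7 and 74.4 CPM in replicates 1, 2 and 3. The passage differences of both factors thus rest in part on replicate 1.

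Soat1 was at 23.5 to 60.4 CPM (median 36.3) at passage 5 and 29.3 to 127 CPM (median 57.5) at passage 2, a log2 difference of -0.85 ± 0.21 (SE) and an adjusted p of 0.0136. Tm7sf2 was at 14.1 to 38.5 CPM (median 23.2) and 18.9 to 61.3 CPM (median 36.6), a log2 difference of -0.67 ± 0.20 (SE) and an adjusted p of 0.0344. Npc1l1 had no count in 7 of 8 samples of passage 5 and in 10 of 24 of passage 2. Of the synthesis enzymes other than Tm7sf2, none was called, and the median over all 18 enzymes was -0.10 beside -0.26 over all genes tested. Passage 5 holds replicate 3 alone and 1 sample per condition, so passage and replicate number cannot be told apart. The mitochondrial share was 8.76 to 14.4% of counts there and 1.85 to 12.5% at passage 2, and 7 of 10 endocrine markers were lower at passage 5. Their part in the result was not tested. Without replicate 1 the members called were 2, and without replicate 2 they were 8.

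**Figure D5:**
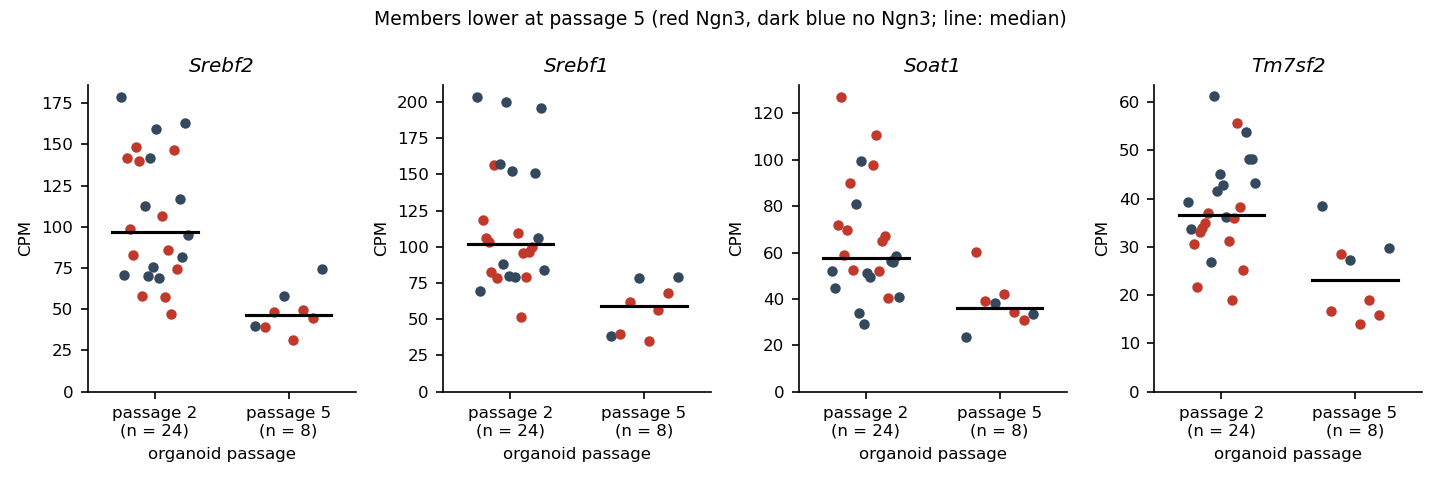
CPM of Srebf2, Srebf1, Soat1 and Tm7sf2 (y axes from 0) in the 24 samples of passage 2 and the 8 of passage 5, red with and dark blue without Ngn3, with a line at the median. The medians at passage 5 are 46.6, 58.9, 36.3 and 23.2 CPM, below those of passage 2 for all 4, and the points of the passages overlap.

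Other sterol genes moved in both directions. Of 23 further genes of sterol synthesis, uptake, transport and sensing, 21 were tested. With Ngn3, 3 rose and 3 fell, and the median of those tested was -0.01. That is 28.6% called, where 21.5% of all genes tested were called. Vldlr, a lipoprotein receptor, was at 11.3 to 46.1 CPM (median 22.9) without Ngn3 and 20.2 to 123 CPM (median 68.1) with it, a log2 fold change of 1.54 ± 0.21 (SE) and an adjusted p of 4.08e-06. Lrp8, a related receptor, rose from a median of 7.12 to 32.4 CPM, a log2 fold change of 2.46 ± 0.35 (SE) and an adjusted p of 6.03e-06. Both receptors also bind ligands other than lipoproteins. Ch25h, which makes an oxysterol that restrains SREBP, fell from a median of 31.4 to 1.33 CPM, a log2 fold change of -3.94 ± 0.59 (SE) and an adjusted p of 1.1e-05. Stard3, a sterol carrier of late endosomes, fell by 0.75 ± 0.21 (SE) on the log2 scale (adjusted p = 0.00877). Cyp7b1, an oxysterol hydroxylase at up to 3.26 CPM, rose (adjusted p = 0.0103).

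Fatty acid synthesis, the other branch under SREBP control, was mixed. Of 15 genes, 2 rose and 2 fell with Ngn3 and the median was -0.21. That is 26.7% of the list called, where 21.5% of all genes tested were called (11.1% higher and 10.5% lower). Me1 and Scd2 fell, by 1.08 ± 0.18 (SE) and 0.92 ± 0.19 (SE) on the log2 scale (adjusted p = 6.16e-05 and 0.000532). Acly, which makes cytosolic acetyl-CoA for both pathways, rose from a median of 248 CPM (131 to 489) to 660 CPM (255 to 1156), a log2 fold change of 0.98 ± 0.24 (SE) and an adjusted p of 0.0035. Lpin1 rose as well, by 0.91 ± 0.26 (SE) with an adjusted p of 0.0113. Fasn, the fatty acid synthase, had a log2 fold change of 0.01 ± 0.19 (SE). At passage 5, 7 of the 15 were lower, where 5.07% of all genes were called lower. Among them were Fasn and Scd1, with log2 differences of -0.82 and -3.27 (adjusted p = 0.00751 and 0.00319).

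The members spanned a wide range of levels. Per kilobase of exon, the median over the 32 samples was highest for Msmo1, at 35.0 CPM per kb, followed by Hmgcs1 at 30.3 and Ebp at 28.8. It was lowest among detected members for Idi1, at 0.674 CPM per kb, and 0 for Npc1l1. The spread between samples of a condition, on the log2(CPM + 1) scale, had a median SD of 0.56 over the members. That between technical repeats of the same sample was 0.51. The first is of samples summed over technical repeats and the second of single libraries, so they cannot be compared directly. Insig1 was the least steady, with an SD of 1.06 between samples of a condition, and Sc5d the steadiest, with 0.34. Part of the spread of Insig1 followed replicate number. Without Ngn3, Insig1 was at 6.36 to 32.5 CPM in replicate 1, 36.1 to 98.4 CPM in replicate 2 and 21.9 to 70.4 CPM in replicate 3.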

How the data were processed

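Pools of 50 sorted organoid cells were sequenced as 61 libraries. The authors aligned the reads with GSNAP to mm10 and assigned them to Ensembl genes with HTSeq (0.5.3p3), per the submitters' processing notes and the methods, and deposited whole-number counts per gene and library, not normalized. Whether counting used strand is not given in the sources used here. Rows that name no gene were left out of library sizes and took 33.9 to 56.5% of a library's assigned and unassigned rows.

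Libraries with over 1000000 gene counts, under 25% spike-in counts and over 10000 detected genes were kept, which left 58, and technical repeats were summed into 32 samples. Symbols came from GENCODE vM21 annotation and were matched for 45143 of 46078 genes. A gene was tested if 5 or more libraries held a count of it and its log2(CPM + 1) values had a variance over 0.001. Counts were fitted with edgeR 4.0.16 (TMM, trended dispersion, legacy quasi-likelihood setting) in R 4.3.3, in a model of all 12 conditions, or of condition and passage, and p-values were adjusted by Benjamini-Hochberg over all 24004 genes. Values in CPM use TMM library sizes. Intervals are 95% with 20 residual degrees of freedom, and can cross 0 where the unadjusted p of the test is just under 0.05. Amplified reads are not independent molecules, so the 3-count floor covers counting error only. Alternatives were RLE size factors, DESeq2 1.42.0, other gene filters, blocks of replicate number, the newer edgeR setting, other uses of libraries, and samples or replicates left out.

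The members and lists were chosen with earlier results of these data known. All 29 members are accounted for, and values are given in full for those called for Ngn3, those with the 3 highest and 3 lowest fold changes and the regulators. In other comparisons the members past the threshold are named, up to 6 by p, and of other lists up to 4 by p, and further genes named were chosen after their values were seen.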

Additional observations from a re-analysis of the deposited data

How the results depend on the processing

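Over the 12 alternative fits the count of members called for Ngn3 over all partners and cultures left the range of 1.5 times its value of 16 in 2 cases, at 5 without replicate 2 and 10 without replicate 3, and the fits without a replicate gave 5 to 11. Those called lower were 13, and 3 to 9 without a replicate. Those called higher were 3, and 5 with the replicate block, 5 with the culture replicate block, 1 with the first technical repeat only and 2 without replicates. With 1 of the 32 samples left out, an alternative chosen after seeing the data, 11 to 16 were called, 9 to 13 lower and 2 or 3 higher. The lowest count came without replicate 1 of WT MafA.

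With Pdx1, where 0 members were called, DESeq2 gave 2, no gene filter 1, the replicate block 1 and the culture replicate block 1. With MafA the count of 3 became 0 to 1 without a replicate, and with Pdx1 and MafA the count of 9 became 0 without replicate 2 and 14 with the replicate block. Adding MafA to Ngn3 and Pdx1 gave 1 with DESeq2 and 1 with the culture replicate block. For passage the count of 5 became 3 with the first technical repeat only and 2 to 8 without a replicate. For any difference among conditions the count of 4 became 0 to 7. Insig2, at 0.03, ran from -0.0893 (without replicate 2) to 0.2733 (without replicate 1) and was also below 0, at -0.03, without replicate 3. The cause of these changes was not tested.

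Same-numbered samples with and without Ngn3 deviated together in 12 of 14 pairs (correlation over 0.1 across 5000 genes, range -0.39 to 0.75), and both pairs of 6SA Pdx1 with MafA were negative. Samples with a shared number thus resembled each other in most conditions, but the numbers were to be taken as pairing only if every pair did, so the fits with a replicate block stand as alternatives. With that block 18 members and 6620 genes were called for Ngn3. With the replicate block Scap was also called higher (0.40), and it was called with the culture replicate block too. Low counts limit Idi1 and Npc1l1, for which 30 and 13 of 32 samples held over 3 counts.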
